A study of Mus musculus with 23 samples.

Results

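The genes described here are 51 genes of the G2 phase and of mitosis, chosen by name but with earlier results of these data known. All 51 were found among the 27207 genes of the count table, and all 51 passed the filter on low counts that left 11144 genes for testing, although 35 of them had at least 10 counts in every library. RNA was sequenced from pancreatic ductal adenocarcinoma cells of the KC mouse, whose Cre is driven from Ptf1a (Ptf1a Cre/+), and of the KPC mouse, whose Cre is driven from Pdx1 (Pdx1 Cre/+). Both genotypes carry further engineered alleles. The labels name 1 mouse for each genotype, in both batches for KC, and the Cre driver differs along with the other alleles, so that genotype, driver and mouse of origin cannot be told apart. KC cells were grown on plastic (2D, n = 6), in collagen gels to day 7 (n = 3) or day 13 (n = 5), and in Matrigel, a tumor-derived basement membrane matrix, to day 13 (n = 3), all in a first batch named in the labels. A second batch held KC (n = 3) and KPC (n = 3) organoids in collagen at day 13. Cells in 2D were lysed directly, whereas organoids were lysed after the matrix had been digested with collagenase. Libraries held between 1221451 and 2471058 UMIs (unique molecular identifiers, each standing for a captured 3' end of an mRNA). Levels are given as CPM, the counts brought to a common library size with edgeR's TMM factors, and a count of 0 allows up to 3 counts, or between 1.16 and 3.22 CPM.

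Cells enter mitosis when cyclin A and cyclin B bind the kinase Cdk1, and they leave it when the anaphase-promoting complex, with its activator Cdc20 and the ubiquitin-conjugating enzyme Ube2c, marks cyclin B for destruction. Between these steps Aurora and Polo-like kinases, kinesins and kinetochore proteins build the spindle and attach chromosomes to it, and anillin and Ect2 drive the cleavage of the cell. The transcripts of most of these genes are made late in the cycle, when the MuvB complex binds first B-Myb (Mybl2) and then FoxM1, and they are repressed in resting cells when MuvB forms the DREAM complex. MuvB contacts DNA at the CHR element (cell cycle genes homology region, TTTGAA), often close to CCAAT boxes that bind NF-Y.

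Promoter sequences were available from RefSeq (build GRCm38.p6, 250 bases before to 50 after a start) for 43 of the 51 genes, as 47 promoters. TTTGAA on either strand was present in 33 of these 47 promoters, or 70.2% (exact binomial 95% interval 55.1 to 82.7), beside 17.9% of the 32851 promoters of the whole table and 11.8% of the 11042 promoters of tested genes. CCAAT on either strand was present in 37 of 47, or 78.7% (exact interval 64.3 to 89.3), beside 37.4% of all promoters. Both intervals treat the promoters as independent draws, although the genes were chosen by name. Overlapping promoters of Ect2, of Gtse1 and of Psrc1 were counted separately. In the 100 bases around the start the shares were 59.6% for TTTGAA and 59.6% for CCAAT, beside 4.94% and 13.6% of all promoters. By gene, over all promoters of a gene, 27 of the 43 held both motifs, 5 held TTTGAA alone, 7 held CCAAT alone and 4 held neither. For Tmpo, counted with both, the motifs lay in different promoters. Among 84 promoters of other genes of mitosis, outside the 51, TTTGAA was present in 48.8% and CCAAT in 60.7%. Among 40 promoters of S phase genes TTTGAA was present in 15% and CCAAT in 62.5%. A match of letters is a description of the sequence and not a mapped binding site.

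The promoters below, from 100 bases before to 50 after the start, show the range of arrangements among genes followed in every library further on. Each is written 5' to 3' on the strand of the gene, with TTTGAA or its reverse complement TTCAAA, and CCAAT or its reverse complement ATTGG, in capitals. The motifs can share a base where they meet. Cdc20 has CCAAT boxes on both sides of a TTTGAA, Cdk1 alternates the motifs, Ube2c carries both on the opposite strand, Plk1 has its TTTGAA after the start, Ccnb1 has CCAAT boxes alone, and Birc5 has neither in this window.
Cdc20 (chr4:118437294-118437443, minus strand): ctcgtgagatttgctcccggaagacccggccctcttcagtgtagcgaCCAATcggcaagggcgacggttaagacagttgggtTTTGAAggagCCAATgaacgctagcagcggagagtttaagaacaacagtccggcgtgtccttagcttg
Cdk1 (chr10:69352863-69353012, minus strand): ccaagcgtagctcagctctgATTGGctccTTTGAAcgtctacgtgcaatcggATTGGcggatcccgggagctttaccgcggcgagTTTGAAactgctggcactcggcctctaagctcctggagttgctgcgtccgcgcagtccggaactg
Ube2c (chr2:164769829-164769978, plus strand): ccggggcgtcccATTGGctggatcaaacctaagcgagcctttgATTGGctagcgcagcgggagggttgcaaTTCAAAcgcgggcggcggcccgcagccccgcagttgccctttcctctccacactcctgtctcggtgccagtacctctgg
Plk1 (chr7:122159335-122159484, plus strand): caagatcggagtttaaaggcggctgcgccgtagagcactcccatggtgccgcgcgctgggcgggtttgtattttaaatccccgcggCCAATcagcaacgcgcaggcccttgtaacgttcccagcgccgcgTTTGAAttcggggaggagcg
Ccnb1 (chr13:100786437-100786586, minus strand): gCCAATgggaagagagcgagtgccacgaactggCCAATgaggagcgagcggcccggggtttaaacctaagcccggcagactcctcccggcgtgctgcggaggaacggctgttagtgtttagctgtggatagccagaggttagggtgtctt
Birc5 (chr11:117849137-117849286, plus strand): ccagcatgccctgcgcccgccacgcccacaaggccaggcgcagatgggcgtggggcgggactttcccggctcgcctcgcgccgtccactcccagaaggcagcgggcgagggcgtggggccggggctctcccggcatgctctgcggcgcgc

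Some libraries stood apart within their groups. In 2D culture, libraries 1 to 3 had TMM factors of 0.738 to 0.772 and libraries 4 to 6 of 1.04 to 1.06, and the summed level of the 51 genes was 2203 to 2231 CPM in the first 3 and 3116 to 3234 CPM in the others. In collagen at day 13, libraries 4 and 5 of the first batch summed to 1575 and 1466 CPM and libraries 1 to 3 to 1946 to 2240 CPM. The labels give no reason for either division. In comparisons that use these libraries, the main counts of the 51 genes called are given with and without them. Group means and their ranks, counts of other lists and values of single genes come from all libraries. Where levels are said not to overlap between a pair of groups, the share of all tested genes without overlap was not counted. Such statements describe the printed values and are not tests. Replicate libraries differed from each other by more than sampling noise, with a chi-square per degree of freedom of at least 1.27. It was 21.6 to 33.7 between 2D libraries 1 to 3 and 4 to 6, and 1.27 to 2.90 within these clusters. In the other groups it was at most 6.75. The 2D libraries thus varied mainly between the clusters. The study calls the day 7 and day 13 libraries individual experiments, but the labels name 1 mouse per genotype, so that p-values measure the spread between these libraries. Ductal epithelial markers summed to between 7161 and 13992 CPM in every library, although Cldn4 had at most 8 counts. Summed fibroblast markers reached 187 CPM at most and endothelial markers 2.67, with Kdr at 0 counts throughout. Of 6 leukocyte markers 4 were in the table, and their sum of 3.41 to 36.6 CPM was mostly Cd68, which had up to 83 counts where Ptprc had at most 3. Of 6 acinar markers 2 were in the table, and their sum of 2.98 to 20.4 CPM was mostly Cela1, with up to 29 counts.

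To describe the genes together, each gene's log2 CPM was standardized to z scores across the 23 libraries, and the mean z score of the 51 was taken as the score of a library. The score was 1.61 ± 0.20 (SD, n = 3) in collagen at day 7, 0.30 ± 0.10 (n = 3) in KPC organoids, 0.03 ± 0.60 (n = 6) in 2D, -0.38 ± 0.05 (n = 3) in Matrigel, -0.52 ± 0.05 (n = 3) in KC organoids of the second batch and -0.65 ± 0.36 (n = 5) in KC organoids of the first batch at day 13. The 3 day 7 libraries, at 1.38, 1.74 and 1.71, lay above all 20 others. The groups below them in this order overlapped with at least 1 neighbor, since the 2D libraries fell at -0.56, -0.46 and -0.51 and at 0.55, 0.59 and 0.59. The plot of the score by library shows the day 7 group on its own and the 2D group in 2 clusters. The summed level of the 51 genes gave the same 2 leading groups on the CPM scale, with 4973 ± 324 CPM at day 7 and 2832 ± 129 in KPC, and the lowest mean, 1836 ± 314, in KC collagen at day 13 of the first batch. In that group libraries 4 and 5, at 1575 and 1466 CPM and scores of -0.91 and -1.13, lay below all other libraries. Its libraries 1 to 3, at 1946 to 2240 CPM and scores of -0.50 to -0.25, overlapped with Matrigel, at 1941 to 2053 CPM and -0.42 to -0.32. Its lowest place therefore rested on libraries 4 and 5.

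**Figure D1:**
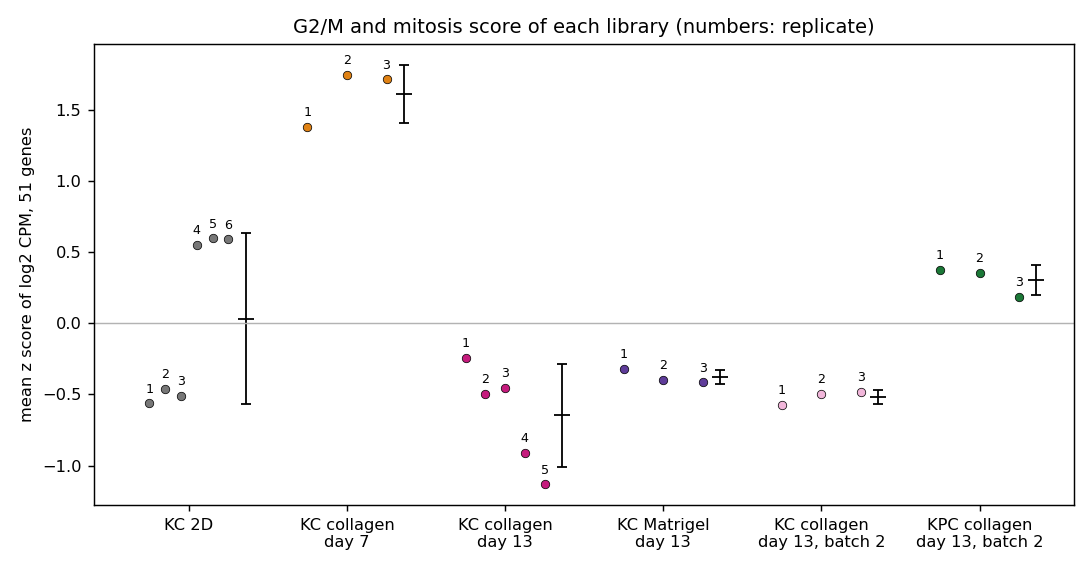
Score of the 51 genes (vertical axis, mean z score of log2 CPM) in each of the 23 libraries by group (horizontal axis), with points numbered by replicate and bars for mean and SD. The day 7 libraries lie at 1.38 to 1.74, above every other library, and the 2D libraries fall into 2 clusters near -0.5 and 0.6.

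Gene by gene, 47 of the 51 had their highest group mean at day 7, where 24.4% of all tested genes had theirs. For 34 of the 51 every day 7 library was above every other library, as for 8.54% of all tested genes. The exceptions with another highest group were Psrc1, a microtubule-binding protein, highest in 2D, and Cenpe, Ckap5 and Kif20b, highest in KPC organoids. KPC organoids were only in the second batch. KC organoids of that batch also had higher means than day 7 for Cenpe (77.8 against 63.3 CPM) and Ckap5 (57.5 against 48.6), but not for Kif20b (24.8 against 31.6). The lowest mean lay in KC organoids of the second batch for 25 genes, in KC collagen at day 13 of the first batch for 17, in 2D for 4, in Matrigel for 3 and in KPC for 2. The ratio of the highest to the lowest group mean ran from 1.81 for Tmpo, a nuclear lamina protein, to 8.36 for Cks2, a small subunit of Cdk complexes.

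Collagen organoids at day 7, in the phase of branch extension, were compared with those at day 13, in the phase of lumen formation. All 51 genes were higher at day 7 (edgeR quasi-likelihood test, Benjamini-Hochberg adjusted p under 0.1), beside 28.1% of all tested genes called higher and 27.1% called lower. The median log2 fold change of the 51 was 1.61, beside 0.01 over all tested genes, and it ran from 0.77 ± 0.13 (SE) for Anp32e to 2.28 ± 0.27 for Foxm1. In bulk RNA, fewer cells in mitosis and less RNA per mitotic cell cannot be told apart. With day 13 libraries 4 and 5 left out 50 were higher, with a median of 1.48. Leukocyte markers summed to 3.41 to 5.88 CPM at day 7 and 12.1 to 22.1 at day 13, and acinar markers to 2.98 to 3.43 and 7.36 to 11.5, and their part in the result was not tested. The authors drew a heat map of cell cycle genes for this contrast and reported enriched Myc and E2F signatures at day 7. From staining of organoids for Ki67 protein they also reported proliferation that decreased over time. The direction of this contrast was therefore known when these genes were listed.

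Foxm1, the transcription factor of the mitotic program, was measured at 34.8, 39.1 and 49.9 CPM at day 7. At day 13 its 5 libraries had 8.35, 14.4, 4.31, 10.3 and 4.73 CPM. The groups were far apart, and the adjusted p was 1.1e-07 in the edgeR fit. Mybl2, its predecessor on the same promoters, had 21, 24 and 24 counts at day 7 and between 2 and 6 at day 13, a log2 fold change of 2.48 ± 0.39. Among the genes of mitotic entry, Ccnb1, which encodes cyclin B1, stood at 162, 148 and 145 CPM at day 7 and at 53.3, 46.0, 51.7, 33.1 and 34.15 at day 13. Cdk1, its kinase, stood at 215, 217 and 202 CPM against 95.5, 93.5, 79.9, 67.2 and 67.8. Ccna2, cyclin A2, had 135, 163 and 148 CPM against 55.2, 44.6, 49.3, 39.0 and 26.3. Cyclins and kinase did not overlap between the days, and their log2 fold changes were 1.79 ± 0.17 for Ccnb1, 1.39 ± 0.12 for Cdk1 and 1.79 ± 0.22 for Ccna2. All 11 genes of entry and its regulators were higher at day 7, from 1.19 ± 0.15 for Ccnb2, the second B cyclin, to Foxm1.

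The genes of mitotic exit gave the same picture in each library. Cdc20 was at 93.7, 98.0 and 110 CPM at day 7 and at 38.02, 35.5, 33.0, 26.9 and 25.7 at day 13. Ube2c was at 177, 184 and 204 CPM and then at 63.5, 55.2, 49.3, 43.4 and 29.9. Neither gene overlapped between the days. The log2 fold changes were 1.66 ± 0.19 for Cdc20 and 1.96 ± 0.19 for Ube2c, with edgeR adjusted p of 1.2e-07 and 6.5e-09. Subunits of the anaphase-promoting complex itself differed less, since 7 of 15 were called higher and 2 lower with a median of 0.45. Anapc15 had the largest of these, 1.40 ± 0.19.

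Birc5 (survivin), which with Aurkb and Cdca8 forms the chromosomal passenger complex, had 316, 299 and 320 CPM at day 7. At day 13 it had 85.3, 74.3, 63.2, 67.6 and 53.6 CPM, a log2 fold change of 2.18 ± 0.14 that was the second highest of the 51. Aurkb, the kinase of that complex, had 67.7, 79.4 and 68.2 CPM against 24.1, 29.7, 26.8, 19.3 and 15.8. Bub1, a kinase of the spindle checkpoint, was higher at day 7 by 2.10 ± 0.22 and Ttk, which acts beside it, by 1.37 ± 0.31. Plk1, the Polo-like kinase, had 104, 94.5 and 110 CPM against 47.8, 30.2, 37.3, 23.7 and 25.7. The 6 kinetochore and centromere genes ranged from 0.94 ± 0.18 for Hjurp, the chaperone of the centromeric histone, to 2.09 ± 0.22 for Nuf2. The 13 spindle genes ranged from 0.92 ± 0.25 for Nusap1 to 1.81 ± 0.18 for Tpx2, and the 4 cytokinesis genes from 0.86 ± 0.19 for Kif23 to 2.12 ± 0.19 for Ect2, the activator of RhoA in the cleavage furrow.

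The 3 nuclear envelope genes had the lowest median of any role, 0.94, and the 7 chromosome structure genes had 1.61. Anp32e, a histone chaperone, had between 179 and 195 CPM at day 7 and between 91.8 and 127 at day 13, and Tmpo and Rangap1 had log2 fold changes of 0.86 ± 0.12 and 0.94 ± 0.12. Top2a, the topoisomerase that untangles sister chromatids, had 120, 179 and 184 CPM at day 7 and 64.4, 59.9, 56.5, 43.9 and 38.4 at day 13. Mki67, the source of the Ki-67 antigen, had 34.8, 126 and 120 CPM at day 7 and 29.7, 29.7, 41.2, 22.4 and 27.8 at day 13. For Mki67 the first day 7 library lay within the day 13 range, and the log2 fold change was 1.64 ± 0.28. The same library was also low for some other genes, with Cenpe at 37.3 against 83.7 and 69.1 CPM, Cenpf at 70.6 against 144 and 149, and Smc4 at 101 against 184 and 202. Tmpo, with longer exons than any of these but Cenpf, was at 169 against 187 and 179. Across the 51 genes its deviation from the group mean had a Spearman correlation of -0.60 with summed exon length, given as a description of 1 library.

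**Figure D2:**
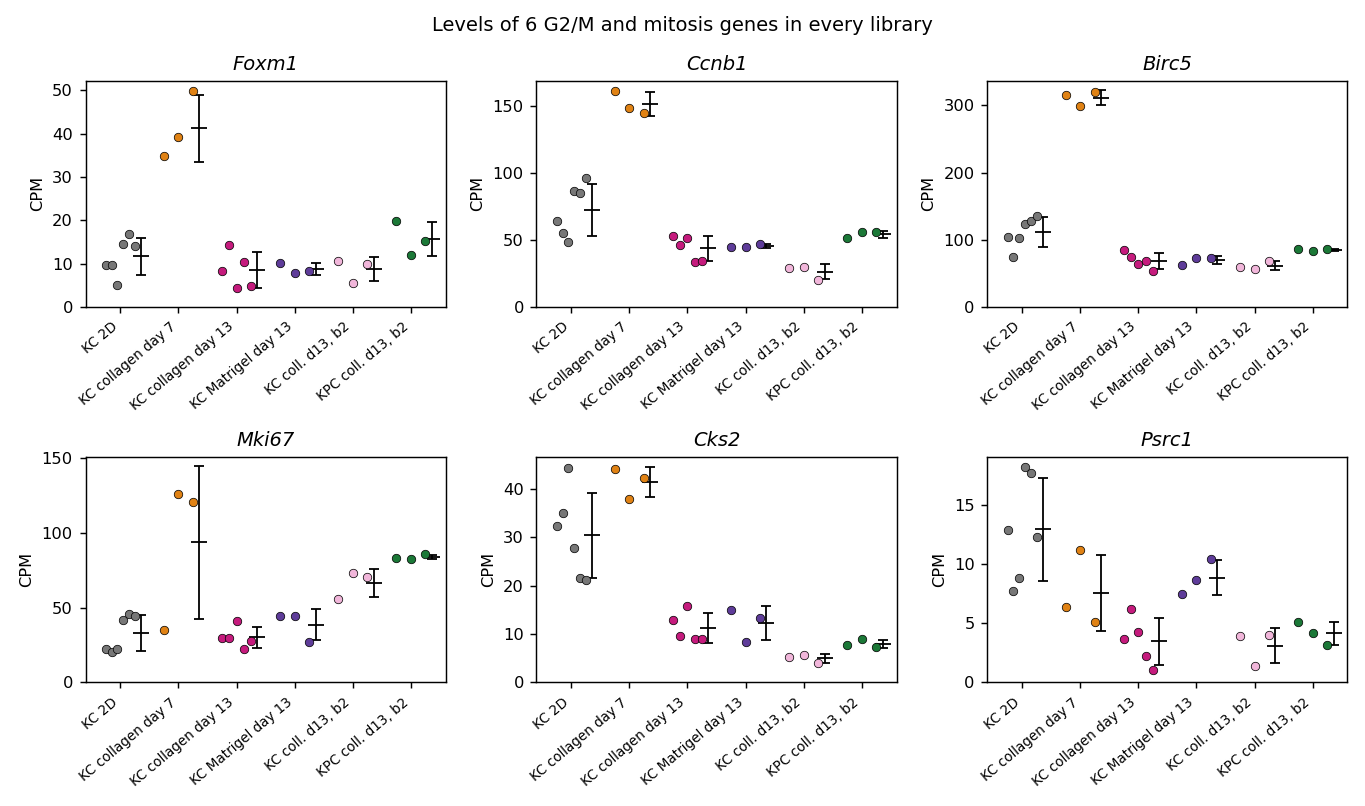
Levels of Foxm1, Ccnb1, Birc5, Mki67, Cks2 and Psrc1 (vertical axes, CPM from 0) in each library by group (horizontal axes), with bars for mean and SD; coll. is collagen, d13 is day 13 and b2 is the second batch. Day 7 stands above all other groups for Foxm1, Ccnb1 and Birc5, its first library is low for Mki67 at 34.8 CPM, and Psrc1 is highest in 2D.

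Genes of the same processes outside the 51 were counted from lists compiled by hand. Of 89 other tested genes of mitosis, 80 were called higher and 1 lower at day 7, with a median of 1.42. The largest changes were those of Ska1 (2.25 ± 0.23), a kinetochore protein, Espl1 (2.22 ± 0.34), which encodes separase, and the kinesin gene Kif18a (2.17 ± 0.28). All 39 tested genes of S phase were called higher, led by Rrm2, a subunit of ribonucleotide reductase, at 2.56 ± 0.22 and Pole at 2.51 ± 0.32. Of the 21 MuvB, DREAM and E2F regulators, 12 were higher and 2 lower, with E2f7 at 1.93 ± 0.29 and E2f8 at 1.87 ± 0.23. Of 11 cyclins and kinases of G1, 6 were higher, among them Ccne2 at 2.19 ± 0.21, and Ccnd2 was lower at -1.47 ± 0.17. Of 10 inhibitors and arrest genes, 2 were higher and 5 lower, with Btg2 at -2.04 ± 0.12 and Cdkn1a, which encodes p21, at -0.49 ± 0.13.

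Cells in 2D were then set beside organoids of day 7 and of day 13 in collagen, which share the 2D libraries. Against day 7, 47 of the 51 were lower in 2D and 1 was higher, beside 24.8% of all tested genes called lower and 26.4% called higher, with a median log2 fold change of -1.03. The lowest values were -1.72 ± 0.25 for Foxm1, -1.47 ± 0.13 for Birc5 and -1.45 ± 0.19 for Cdca8. Birc5 stood at 104, 74.7, 102, 124, 128 and 135 CPM in 2D, below all day 7 libraries. The genes called in neither direction were Cks1b, the partner of the ubiquitin ligase subunit Skp2, at -0.25 ± 0.13, Hmgb2, a chromatin protein, at -0.32 ± 0.23, and Nusap1 at -0.44 ± 0.24. Psrc1 was higher in 2D, with 12.9, 7.76, 8.87, 18.3, 17.8 and 12.4 CPM against 6.37, 11.2 and 5.12, a log2 fold change of 0.83 ± 0.32 at an adjusted p of 0.039, and the groups overlapped. This call was lost without day 7 library 1 or 3, with 2D libraries 4 to 6 left out, with library size alone and with the replicate block. Ductal epithelial markers summed to 7161 to 10310 CPM in 2D and 11294 to 12735 at day 7. Leukocyte markers summed to 4.57 to 18.3 CPM in 2D and 3.41 to 5.88 at day 7. Acinar markers summed to 4.57 to 20.4 CPM in 2D and 2.98 to 3.43 at day 7. The part of these markers in the differences was not tested. With 2D libraries 1 to 3 left out 1 gene was higher and 45 lower, and with libraries 4 to 6 left out 48 were lower.

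Against collagen at day 13, 35 of the 51 were higher in 2D and 0 were lower, beside 26.3% and 23.3% of all tested genes, with a median of 0.58. At an unadjusted p under 0.05 edgeR likewise gave 0 lower, and DESeq2 called 33 higher and 0 lower. The highest were Psrc1 at 1.93 ± 0.32, Cks2 at 1.37 ± 0.20 and Cks1b at 1.19 ± 0.12, and the lowest Kif23 at -0.18 ± 0.17, Hjurp at -0.16 ± 0.17 and Ckap5 at -0.15 ± 0.17. Cdk1 had 133, 132, 121, 123, 127 and 133 CPM in 2D, all above the 67.2 to 95.5 CPM of day 13, and its 2D clusters overlapped. For Plk1 the 2D libraries had 33.3, 27.2 and 16.8 CPM in libraries 1 to 3 and 64.8, 63.4 and 63.0 in libraries 4 to 6, and day 13, from 23.7 to 47.8, overlapped with the former and lay below the latter. Cks1b ran the other way, with 341.5, 299 and 351 CPM and then 229, 228 and 253, against 95.6 to 147 at day 13. With 2D libraries 1 to 3 left out 44 genes were higher, and with libraries 4 to 6 left out 14 were higher and 5 lower with a median of 0.08. With day 13 libraries 4 and 5 left out 22 were higher, and without library size correction by TMM 19. Of the other lists, 34 of 39 S phase genes and 42 of 89 other mitosis genes were higher and 1 of the latter lower. Of 10 inhibitors and arrest genes, 3 were higher in 2D and 4 lower, with a median of -0.05. Cdkn1a (-0.90 ± 0.11) and Btg2 (-2.14 ± 0.09) were among the lower.

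The effect of the matrix was examined between Matrigel and collagen at day 13. In Matrigel 2 of the 51 were higher and 0 lower, beside 6.62% and 6.29% of all tested genes, with a median log2 fold change of 0.11. At an unadjusted p under 0.05 edgeR gave 5 higher and 0 lower, and DESeq2 called 2 higher and 0 lower after adjustment. Psrc1 had 7.475, 8.72 and 10.49 CPM in Matrigel and 3.71, 6.23, 4.31, 2.24 and 1.05 in collagen, without overlap. Behind these levels lie 18 to 20 counts in Matrigel and 2 to 13 in collagen, and the log2 fold change was 1.30 ± 0.38 (adjusted p = 0.029). Hjurp had 42.1, 40.1 and 37.3 CPM in Matrigel and 32.4, 28.3, 25.4, 26.0 and 27.8 in collagen, also without overlap, at 0.51 ± 0.19 (adjusted p = 0.093). After Psrc1 the highest values were those of Kif11, a bipolar kinesin that pushes spindle poles apart, at 0.64 ± 0.25 (adjusted p = 0.13) and Nuf2 at 0.58 ± 0.26 (adjusted p = 0.24), and the lowest were Hmmr at -0.39 ± 0.28, Hmgb2 at -0.32 ± 0.25 and Nek2 at -0.27 ± 0.29. The count was 0 without Matrigel library 3, and 1 without Matrigel library 1 or without collagen library 2, 3 or 5. It was 8 with the compared groups alone, 5 without a filter, 4 with the replicate block and 4, 3 higher and 1 lower, with all 8 KC collagen libraries of day 13. With day 13 collagen libraries 4 and 5 left out neither Psrc1 nor Hjurp was called, while Kif11 was higher (0.81) and Hmgb2 lower (-0.61), and the median over the 51 was -0.01. Leukocyte markers, mostly Cd68, summed to 30.7 to 36.6 CPM in Matrigel and 12.1 to 22.1 in collagen, and their part in these values was not tested.

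Among the genes followed in every library, Cdk1 differed between the matrices by 0.01 ± 0.12, Birc5 by 0.01 ± 0.15, Ccnb1 by 0.06 ± 0.19, Foxm1 by 0.06 ± 0.34 and Top2a by 0.52 ± 0.22 (adjusted p = 0.17). Ccnb1 had 44.85, 44.5 and 47.2 CPM in Matrigel, inside the 33.1 to 53.3 CPM of collagen. These errors leave room for changes of a size that 3 and 5 libraries could not show. Of the other lists, 1 of 89 mitosis genes was higher (Plk4, 0.60 ± 0.22, the kinase of centriole duplication) and 1 lower (Zwint, -0.30 ± 0.11), and 1 of 39 S phase genes was higher (Pole, 1.37 ± 0.37). Btg2 and Tob1, a pair of antiproliferative genes, were lower in Matrigel at -1.51 ± 0.11 and -1.22 ± 0.14, whereas Cdkn1a differed by 0.03 ± 0.13.

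KPC organoids were compared with KC organoids within the second batch. Of the 51 genes, 23 were higher in KPC and 0 lower, beside 9.58% of all tested genes called higher and 10.4% called lower, with a median log2 fold change of 0.66. At an unadjusted p under 0.05 edgeR gave 29 higher and 0 lower, and DESeq2 called 23 higher and 0 lower after adjustment. The highest were Ect2 at 1.52 ± 0.27, Cdca3, an adaptor in mitotic entry, at 1.201 ± 0.27, and Cdc20 at 1.16 ± 0.26. The lowest were Anp32e at -0.26 ± 0.15, Tmpo at -0.18 ± 0.15 and Lbr, the lamin B receptor, at -0.16 ± 0.24.

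Ect2 had 35.1, 31.7 and 26.9 CPM in KPC and 8.61, 13.9 and 9.996 in KC. Cdc20 had 60.0, 49.7 and 53.8 CPM against 30.5, 19.5 and 22.7, and Ccnb1 51.1, 55.7 and 55.96 against 29.1, 30.0 and 19.99. None of these overlapped between the genotypes, a description of 3 libraries against 3. Foxm1 itself had 19.8, 12.0 and 15.3 CPM in KPC and 10.59, 5.58 and 9.996 in KC. Its log2 fold change of 0.83 ± 0.38 was not called by edgeR (adjusted p = 0.16). Plk1 (0.64 ± 0.34), Aurkb (0.53 ± 0.26), Top2a (0.55 ± 0.24) and Mki67 (0.33 ± 0.32) did not pass the test either. By role, 6 of 11 entry genes, both exit genes, 2 of 5 passenger and checkpoint genes, 3 of 6 kinetochore genes, 7 of 13 spindle genes and 3 of 4 cytokinesis genes were called. Of the 7 chromosome structure genes and the 3 nuclear envelope genes, 0 were called by edgeR, with 2 of the former and 0 of the latter at an unadjusted p under 0.05. The difference of KPC from KC can be read only as that of cells from 2 mice. Ductal epithelial markers summed to 9830 to 11361 CPM in KPC and 12398 to 13992 in KC of that batch. Leukocyte markers summed to 5.99 to 11.6 CPM in KPC and 18.7 to 21.2 in KC. The part of these markers in the result was not tested.

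Of the 89 other mitosis genes, 26 were higher in KPC and 1 lower, and of 39 S phase genes 12 were higher, with Mcm2 of the replicative helicase at 1.39 ± 0.27. Of 10 inhibitors and arrest genes, 5 were lower. Cdkn1a, an inhibitor of Cdk complexes, had 285, 270.5 and 357 CPM in KPC against 1032, 1143 and 841 in KC of the same batch, a log2 fold change of -1.72 ± 0.15. In KC organoids at day 13 of the first batch Cdkn1a had between 292 and 476 CPM, so that KPC lay below KC within the second batch and KC itself differed between the batches by 1.45 ± 0.13. Against all 8 KC collagen libraries of day 13 together, 31 of the 51 genes were called, all higher, with a median of 0.59. With the compared libraries fitted alone the count was 35. Leaving out single libraries gave 14 to 17, the lowest being 14 without KC library 1 and 15 without KC library 2 of that batch.

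**Figure D3:**
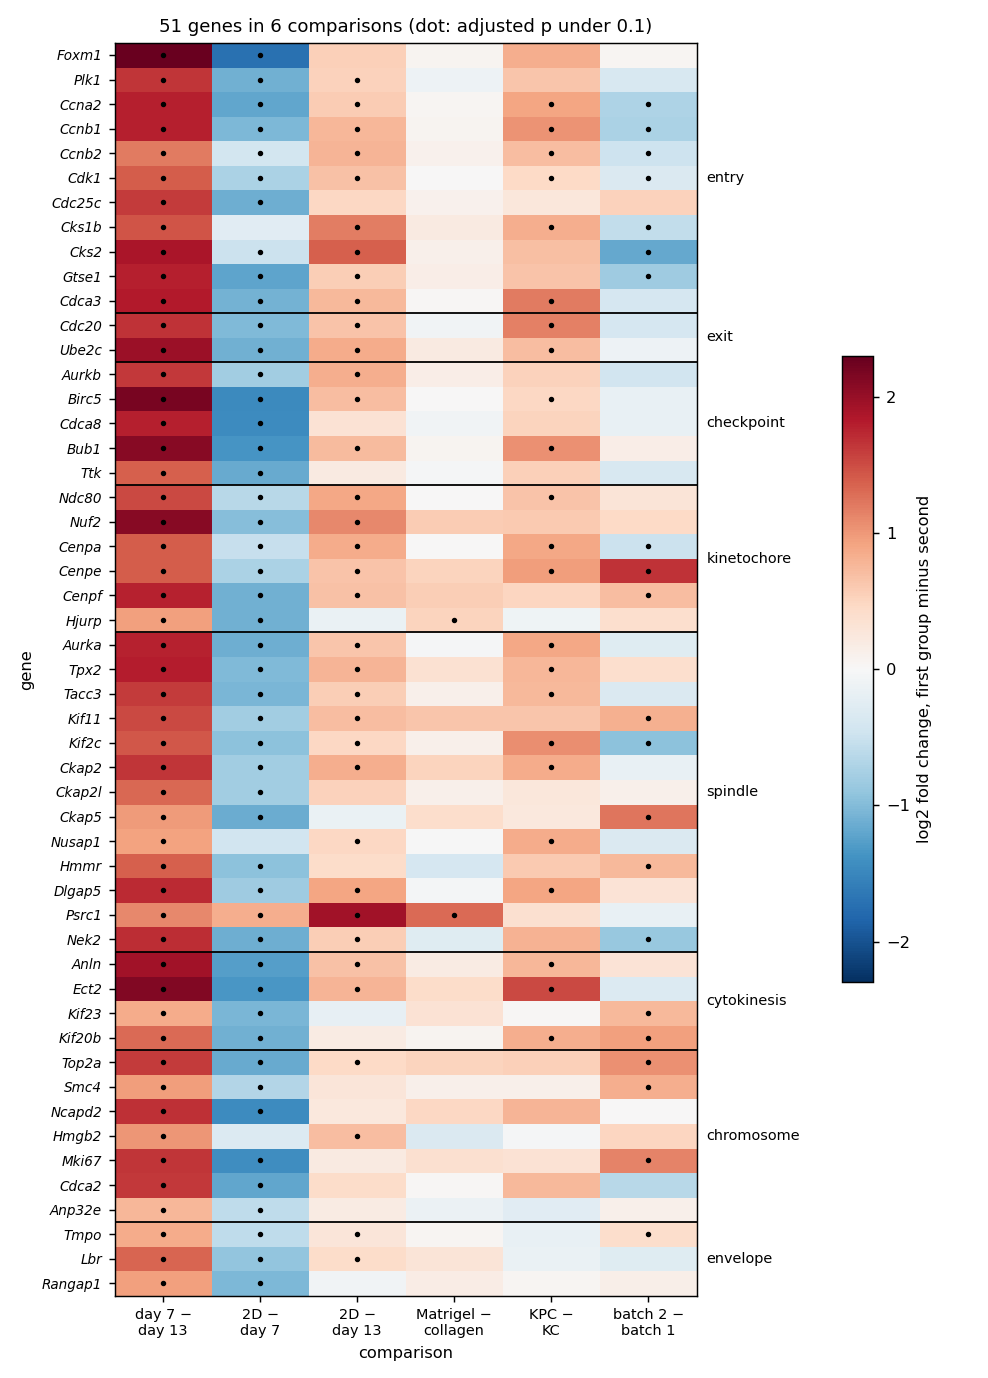
Log2 fold change (color, first group minus second) of the 51 genes (rows, grouped by role) in the 6 comparisons (columns), with a dot where the edgeR adjusted p was under 0.1. Day 7 minus day 13 is positive and dotted for all 51 genes, Matrigel minus collagen has 2 dots, and the batch column holds 11 positive and 10 negative dots.

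The KC collagen organoids of day 13 in both batches, from the same mouse by the labels and of the same matrix and day, gave a measure of how far these genes varied without a labeled difference other than batch. Of the 51 genes, 11 were higher in the second batch and 10 lower, beside 19.3% and 18.1% of all tested genes, with a median of -0.12. With day 13 libraries 4 and 5 of the first batch left out 9 were higher and 11 lower, with a median of -0.20. Cenpe, a kinesin of the kinetochore, had 74.8, 87.85 and 70.6 CPM in the second batch and 33.8, 16.8, 32.1, 21.9 and 16.8 in the first, at 1.67 ± 0.32. Ckap5, a microtubule polymerase, and Mki67 followed at 1.22 ± 0.18 and 1.14 ± 0.30. Cks2 had 5.30, 5.58 and 3.998 CPM in the second batch and 13.0, 9.59, 15.8, 8.96 and 8.93 in the first, at -1.18 ± 0.34. Kif2c, a microtubule depolymerase, and Nek2, a centrosomal kinase, had -0.94 ± 0.27 and -0.88 ± 0.34, and Ccnb1 and Ccna2 had -0.73 ± 0.22 and -0.72 ± 0.27.

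The split followed the length of the genes' exons. The genes called higher had summed exons of 5210 bases (Smc4) to 15433 (Cenpf), and those called lower of 692 (Cks2) to 5860 (Cenpa). Over the 51 genes the log2 fold change between batches and log2 exon length had a Pearson r of 0.67 and a Spearman rho of 0.67, a correlation across genes that share libraries and are not independent replicates. Over 11005 tested genes with a length the values were 0.29 and 0.28. Between day 7 and day 13, within the first batch, the 51 genes gave -0.13 and -0.16. Other comparisons within that batch gave larger values. They were -0.48 and -0.40 for 2D against day 13, and -0.32 and -0.25 for 2D against day 7. For Matrigel against collagen they were 0.27 and 0.32. Over all tested genes with a length, r was -0.30 for 2D against day 13 and -0.28 for 2D against day 7. With each library's trend over exon length removed, 12 genes were higher and 7 lower in the second batch, and all 51 remained higher at day 7 than at day 13. Between KPC and KC, within the second batch, r was -0.22.

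**Figure D4:**
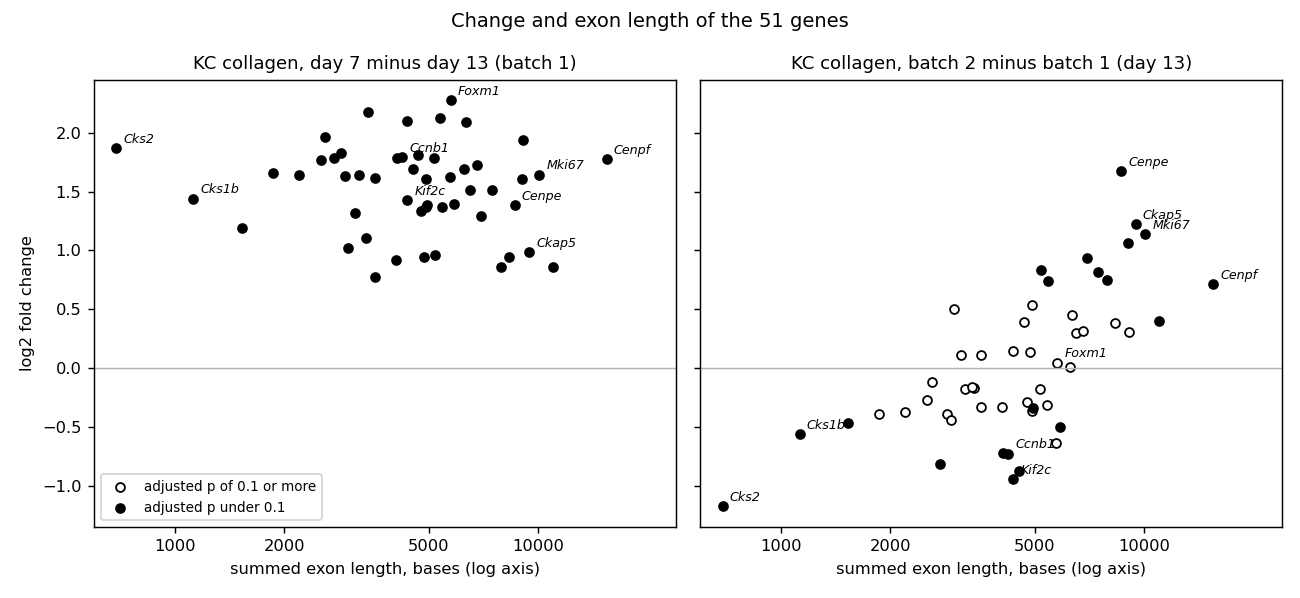
Log2 fold change (vertical axis) against summed exon length in bases (horizontal log axis) for the 51 genes, between day 7 and day 13 (left) and between the batches at day 13 (right), with filled points for an adjusted p under 0.1. On the left all points are filled and lie above 0 with r of -0.13, and on the right short genes such as Cks2 lie below 0 and long genes such as Cenpe above it with r of 0.67.

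Changes were set beside the promoter motif as a description. Between day 7 and day 13 the 32 genes with the motif had a median log2 fold change of 1.43, from 0.77 to 2.12, and the 11 without it 1.78, from 0.92 to 2.18. Between KPC and KC the medians were 0.62 and 0.75, and 14 of the 32 and 6 of the 11 were called. Birc5 and Ccnb1, printed above without a TTTGAA in the window, were at 2.18 and 1.79 between the days. The genes printed with it were at 1.39 for Cdk1, whose promoter holds it more than once, 1.64 for Plk1, 1.66 for Cdc20 and 1.96 for Ube2c.

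Where genes overlap on the annotation, the counts may hold reads of a neighbor, since the sources used here do not say whether counting used strand. On GRCm38 (GENCODE M21), Cdc20 (chromosome 4, 118432901 to 118437352, minus strand) overlaps Elovl1 on the opposite strand. Ccna2 (chromosome 3, 36564865 to 36572150, minus strand) overlaps Exosc9, and Nusap1 (chromosome 2, 119618298 to 119651244, plus strand) overlaps Oip5, both on the opposite strand. Ccnb1 (chromosome 13, 100778650 to 100786570), Cdk1 (chromosome 10, 69335146 to 69352938) and Birc5 (chromosome 11, 117849251 to 117855743) overlap no other gene there. Aurkb likewise overlaps none. Foxm1 (chromosome 6, 128362967 to 128376146, plus strand) overlaps Tex52 and Gm44596 on the same strand, where counting by strand would not separate them. Plk1 overlaps Gm44985, Ube2c overlaps Tnnc2 and Mki67 overlaps Gm45240, each on the opposite strand. Top2a overlaps Gm23451 on the same strand and Gm26394 on the opposite strand. The part of such neighbors in the counts was not tested.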

How the data were processed

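Bulk RNA of 23 libraries in 6 groups was analysed. The authors ran the Drop-seq pipeline on GRCm38 with GENCODE M25, and the deposited values are whole-number UMI counts of 27207 genes, not normalized. Counts were tested in R 4.3.3 with edgeR 4.0.16 (quasi-likelihood F-test, TMM, filterByExpr, 1 fit of all libraries), and p-values were adjusted by Benjamini-Hochberg over 11144 genes, with a threshold of 0.1. Log2 CPM for the score used a prior count of 2. Exon lengths and positions came from GENCODE M21 and promoters from RefSeq. Scripts were tested on simulated data.

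The 51 genes and the other lists were chosen with earlier results of these data known, so their direction is not independent support. Values in every library were planned for Foxm1, Plk1, Ccna2, Ccnb1, Cdk1, Cdc20, Ube2c, Aurkb, Birc5, Top2a and Mki67. Per comparison the 3 highest and 3 lowest of the 51 and those called against the majority were planned too, as were at most 4 called genes of each other list with the largest changes, and Mybl2 and Cdkn1a. Some planned items are not reported here. Other genes of the 51 were named after their values were seen. Alternatives included DESeq2 1.42.0, other scalings, filters and thresholds, the compared groups alone, replicate numbers as a block and each library left out. Removal of the length trend and leaving out 2D libraries 1 to 3 or 4 to 6, or day 13 libraries 4 and 5, were added after seeing the data.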

Additional observations from a re-analysis of the deposited data

Results flagged for a closer look

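In the groups of 5 and 6 libraries, 104 sets of values were tested for a library standing apart by Dixon's ratio of gap to range, and chance flags about 1 in 20 such sets. The ratio passed its limit in 1 set. Ckap2l, a spindle protein gene, was at 34.3 CPM in the first KC collagen library of day 13 in the first batch, with the next library at 22.5 CPM, a ratio of 0.738.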

How the results depend on the processing

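At day 7 against day 13, between 50 and 51 genes were called when single libraries were left out, and for 2D against day 7 between 46 and 49. For 2D against day 13 (35 called) the range was 26 to 40, and the count was 19 with library size alone, 19 with 2D libraries 4 to 6 left out, 22 with day 13 libraries 4 and 5 left out and 24 with the replicate block. With 2D libraries 4 to 6 left out 8 called genes reversed: Plk1 to -0.35, Ccna2 to -0.0633, Gtse1 to -0.17, Cenpe to -0.49, Nusap1 to -0.33, Nek2 to -0.00841, Top2a to -0.16 and Lbr to -0.10. For Matrigel against collagen (2 called) the range was 0, without Matrigel library 3, to 2. Libraries whose removal left 1 were Matrigel library 1 and collagen libraries 2, 3 and 5. The count was 1 with library size alone, 1 with at least 10 counts in every library (where 16 genes were not tested), 1 with the length trend removed, 1 at a threshold of 0.05, 5 without a filter, 4 with the replicate block, 8 with the compared groups alone and 4 with all 8 KC collagen libraries. For KPC against KC (23 called) the range was 14 to 17, and the count was 35 with the compared groups alone. For the batches (21 called) the range was 15 to 21. The cause of these changes was not tested beyond the smaller number of libraries or genes that some settings hold. With library size alone the median of all tested genes moved to -0.14 and -0.20 in the 2D comparisons, 0.13 in KPC against KC and -0.18 between the batches, and the KPC score difference was 0.96 in place of 0.82. DESeq2 called 51, 47, 33, 2, 23 and 21 genes in the order of the report. The share of promoters with CCAAT was 59.6% in the 100 bases around the start.

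Same-numbered libraries showed little joint deviation (r from -0.12 to 0.19 over 20 pairs of the first batch, 2 above 0.1, and from -0.04 to 0.01 over 3 pairs of the second), so that no pairing by number was detected. With few libraries per group and the division of the 2D libraries, these values cannot exclude a pairing. With the replicate block the counts were 51, 47, 24, 4 and 22, in the order of the report and without the batch comparison.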
